A study of Homo sapiens with 2 samples.

Results

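Retinoic acid is made inside the cell from vitamin A and acts by binding nuclear receptors that sit on the DNA of their target genes. Retinol enters through a membrane transporter, is oxidised first to retinaldehyde and then to retinoic acid, is carried by small binding proteins, and is cleared by cytochromes of the CYP26 family. In the embryo the hormone patterns the hindbrain and spinal cord, and pluripotent stem cells are pushed towards neural and other fates when they are exposed to it. The 10 genes described here are the transporter STRA6, the enzymes DHRS3 and CYP26A1, the binding proteins CRABP1 and CRABP2, the receptors RARA, RARB and RARG, and the related pair GREB1 and GREB1L. GREB1 was named for its induction by oestrogen in breast cancer cells, and GREB1L, its paralogue, is known from the development of the kidney and inner ear. GREB1L was chosen because it rose in substate 2, so its values are a description and carry no test.

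The H9 line of human embryonic stem cells was grown in TeSR-E8 medium and was moved from Vitronectin XF to Matrigel, where the study distinguished a pair of substates. Substate 2 colonies stain for vimentin and weakly for R-10G, an antibody to cell-surface keratan sulphate. RNA of substate 1 at passage 35 and of substate 2 at passage 50 was labelled with Cy3, each on 1 single-colour array. Substate and passage thus cannot be told apart, and differences have no replicate check and no p-value. The study began its Matrigel culture at passage 35, and the labels give no matrix for either sample, so a difference in matrix or in time on it cannot be told apart from substate. How the cells of each substate were gathered for the arrays is not stated. In RNA pooled over many cells, fewer cells of a type and less RNA per cell cannot be told apart either. The members were found through the RefSeq accession of each non-control probe. All 10 genes had a probe, 17 probes in all, each printed as 1 spot, out of 22439 genes that could be named on the array.

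Values are log2 of the background-subtracted signal minus the 75th percentile of the same array, so that 0 stands for a signal of 313.7 in substate 1 and 275.4 in substate 2. Differences are substate 2 minus substate 1 on the log2 scale. A probe was counted as changed when it was well above background on both arrays and differed by 2-fold or more. If it was well above background on 1 array only, the dim side was given its own value or, if that was higher, the dimmest value that still counted as well above background there, and the resulting bound ("at least N-fold") had to reach 2-fold. Where the dim side kept its own value, the bound is the plain ratio of the 2 values and no minimum, and "at least" is left out. The level of a probe depends on its sequence, so levels are compared between arrays and not between probes. The error printed after a signal is that of the scanner software for 1 spot, and it leaves out the cells, the RNA and the labelling. Both arrays lay on 1 slide and were read in 1 scan, no spot was saturated, and spots well above background made up 57.4% of the non-control spots in substate 1 and 54.7% in substate 2.

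Retinoic acid receptors bind as partners of the retinoid X receptors to a direct repeat of a short motif, and CYP26A1 and RARB are textbook targets regulated in this way. The promoters of these targets are therefore shown next to that of GREB1L, as the 250 bases before an annotated start site, from RefSeq on GRCh38.p14. Capitals mark a direct repeat of the motifs AGGTCA or AGTTCA with 5 bases between them (DR5), searched on both strands, or of their last 5 letters, GGTCA or GTTCA, with 6 bases between them. The shorter pattern was chosen after the sequences had been seen, and every match of the longer one also holds it.

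CYP26A1, chr10:93073643-93073892, + strand: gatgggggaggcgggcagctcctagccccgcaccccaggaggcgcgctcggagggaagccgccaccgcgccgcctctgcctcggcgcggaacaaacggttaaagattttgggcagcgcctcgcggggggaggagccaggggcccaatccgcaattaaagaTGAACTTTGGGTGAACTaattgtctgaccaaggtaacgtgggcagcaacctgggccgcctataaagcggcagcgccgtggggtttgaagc
RARB, chr3:25428013-25428262, + strand: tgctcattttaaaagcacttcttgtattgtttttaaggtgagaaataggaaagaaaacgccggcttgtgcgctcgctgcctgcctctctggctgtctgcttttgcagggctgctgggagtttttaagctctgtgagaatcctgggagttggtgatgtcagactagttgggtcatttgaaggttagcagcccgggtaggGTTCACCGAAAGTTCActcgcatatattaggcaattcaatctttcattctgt
GREB1L, chr18:21241982-21242231, + strand: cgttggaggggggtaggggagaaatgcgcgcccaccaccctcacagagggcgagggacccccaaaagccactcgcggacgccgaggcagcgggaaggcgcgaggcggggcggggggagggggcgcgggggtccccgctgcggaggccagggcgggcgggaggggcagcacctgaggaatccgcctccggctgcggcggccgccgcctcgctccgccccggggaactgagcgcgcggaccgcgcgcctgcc

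The longer pattern stood on the reverse strand at bases -90 to -74 of the CYP26A1 window, counted from the start site with -1 just before it. It occurred in 7 of the 35116 promoter windows of 300 bases in the RefSeq table (0.0199%). The shorter pattern stood at bases -52 to -37 of the RARB window and occurred in 61 windows (0.174%). The GREB1L window held neither. The same search covered 21 windows of 9 members, with no other match, and found none with a spacing of 2 bases (in 2 windows of the table, 0.0057%) or 1 base (17 windows, 0.0484%). The oestrogen response element, AGGTCA and TGACCT with 3 bases between them, was in 1 window of the table (0.00285%) and in no member window. GREB1 had no promoter window, so it was not searched for any of these patterns. These matches describe the letters only, and binding was not measured. RNA of the 3 genes shown went different ways on the arrays: CYP26A1 was 1.53-fold lower in substate 2, 1 RARB probe was at least 1.51-fold lower and the other near background, and GREB1L was higher.

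GREB1L was the only member that changed by 2-fold or more. Its probe A_23_P119040 had a signal of 18.7 ± 3.44 in substate 1 and 59.0 ± 6.63 in substate 2, which is -4.07 and -2.22 on the normalised log2 scale. The difference was 1.85, or 3.60-fold higher in substate 2. The other probe, A_33_P3271470, gave 15.2 ± 4.40 in substate 1, where it was not well above background, and 109 ± 11.6 in substate 2. It was 8.12-fold higher (log2 3.02) by its own dim value in substate 1, which is a plain ratio and no minimum. Of the 828 probes measured in substate 2 only, 31.4% had a bound of 2-fold or more. Both probes stand for the same transcript record, so they are separate readings of 1 message and not replicates of the cells. Both moved the same way and were dim in substate 1: before correction the spots of the probes read 79 and 59 there, over a local background of 39 and 36. In substate 2 they read 129 and 152 over 41 and 39.5.

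The dimness of GREB1L sets how closely its rise can be sized. Probes that were printed 10 times gave the spread between spots of 1 array. Between normalised values of -5.5 and -4, where substate 1 lay, the median SD was 0.44 (6 probes). This SD covers printing and hybridisation alone and leaves out the cultures, the RNA and the labelling, so it is no measure of the spread between cultures. With the normexp background correction, which adds an offset of 50 and so draws dim spots together, the difference of the first probe was 0.73 (1.66-fold), below the 2-fold limit, and the other probe was still called, with a bound of 1.28. Without that correction the first difference ran from 1.85 to 1.90 over the other normalisations. By the gene value GREB1L ranked 20 of the 16001 genes measured on both arrays, and 116 under normexp.

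Of the 16 member probes measured on at least 1 array, 2 passed the 2-fold limit upwards, both of GREB1L, and 0 downwards. Over all 33166 such probes, 1.55% were higher and 1.67% were lower by this rule. Restricted to probes measured on both arrays, 1 of 14 member probes was higher and 0 lower, where 0.85% and 1.26% of all such probes were. By gene value 1 of 9 members was higher and 0 lower, where 0.931% and 1.07% of all genes were. Since GREB1L was chosen on this contrast, its share is not read against them. The 14 other member probes gave 0 calls in either direction. By the Z-score of the study's methods, which divides each difference, less the mean of all probes, by their SD of 0.63, the GREB1L probes stood at 2.81 and 4.66, past the limit of 2 that 3.03% of all 58201 probes passed upwards. No member passed the lower limit, which 3.3% of probes did. Of the 9 member genes measured on both arrays 6 had a difference above 0 and 3 below it, with a median of 0.18, or 0.13 without GREB1L, against 0.08 over all 16001 genes.

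**Figure D1:**
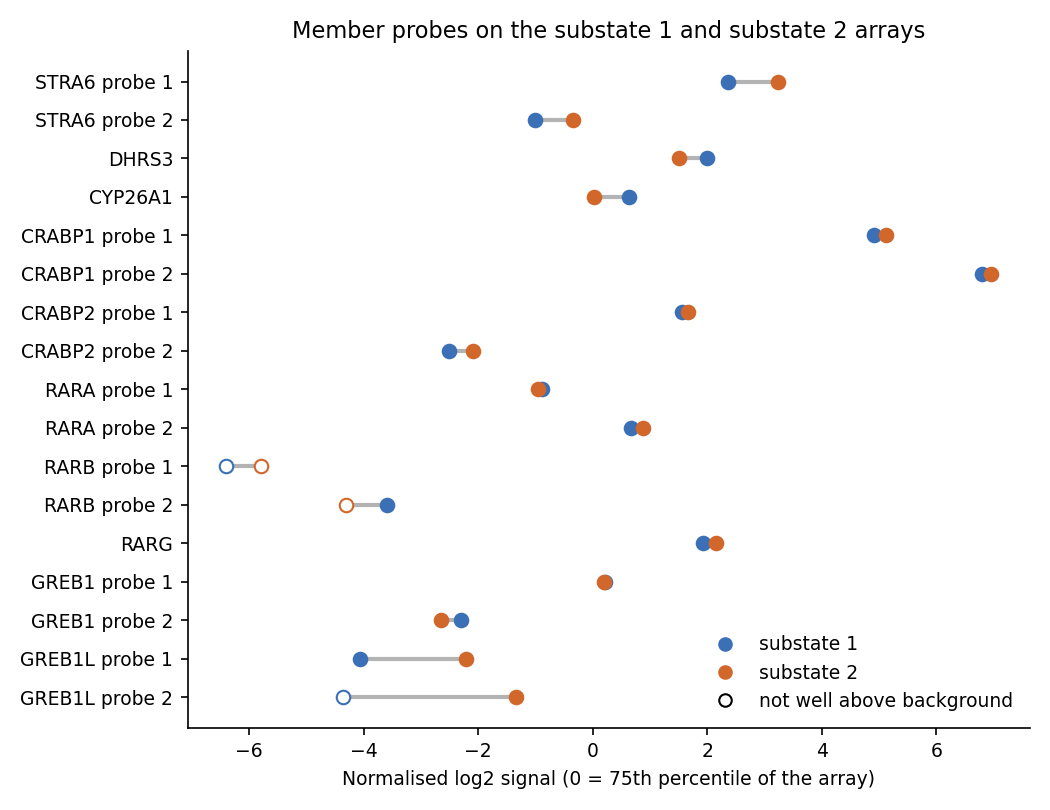
Normalised log2 signal (horizontal axis) of the 17 member probes in substate 1 and substate 2, 1 array each (points), joined by a line for each probe; open points are not well above background. Both GREB1L probes lie low and far apart between the arrays, at -4.07 and -2.22 for the first, whereas the pairs of CRABP1 lie close together at the bright end.

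STRA6, the cell-surface receptor that takes up retinol from its plasma carrier, had the largest positive difference after GREB1L among the members, without reaching the 2-fold limit. Its first probe read 1617 ± 162 in substate 1 and 2604 ± 260 in substate 2, a difference of 0.88 (1.83-fold higher). The other, for another transcript of the gene, read 156 ± 16.1 and 216 ± 22.0, a difference of 0.65 (1.57-fold higher). Both probes were thus brighter in substate 2, and the gene value of 0.76 ± 0.16 (SD between the 2 probes) was higher than that of 97.9% of the genes measured. It ran from 0.65 to 0.81 over the normalisations tried, of which median centring shifts all genes by the same amount.

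The 2 member enzymes, which lower retinoic acid or its precursor, had values on the other side of 0. Of the other retinoid enzymes on the array, CYP26B1 and CYP26C1 were well above background on neither array. The probes of DHRS4 stood at 0.54, 0.40 and 0.51. CYP26A1, the oxidase that clears retinoic acid and is itself induced by it, read 487 ± 48.8 in substate 1 and 280.1 ± 28.2 in substate 2, on the log2 scale 0.63 and 0.02. The difference of -0.61 (1.53-fold lower) was low among genes, with 4.63% of them lower still. DHRS3, which reduces retinaldehyde back to retinol and is also induced by retinoic acid, read 1255 ± 126 and 780 ± 78.1. Its difference was -0.50 (1.41-fold lower), and 6.90% of genes were lower. Each gene had 1 probe, and neither reached the 2-fold limit or the Z-score limit, at Z-scores of -1.08 and -0.90. Over the normalisations CYP26A1 ran from -0.64 to -0.50 and DHRS3 from -0.57 to -0.39.

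The binding proteins CRABP1 and CRABP2, which hold retinoic acid in the cytoplasm, were measured on both arrays by both of their probes. The CRABP1 probes read 9432 ± 943 and 35062 ± 3506 in substate 1 and 9572 ± 957 and 34400 ± 3440 in substate 2, with differences of 0.21 and 0.16. These signals were high in both substates, and the gene value of 0.18 was 0.01 under loess centring. The CRABP2 probes read 924 ± 92.5 and 54.9 ± 6.48 in substate 1 and 876 ± 87.7 and 64.7 ± 7.38 in substate 2, with differences of 0.11 and 0.43. The gene value of CRABP2 was 0.27 ± 0.22 (SD between the 2 probes).

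Among the receptors, RARA and RARG were measured on both arrays and RARB lay near background. RARA read 170 ± 17.4 and 500 ± 50.2 by its 2 probes in substate 1 and 142 ± 14.8 and 507 ± 50.9 in substate 2. The differences of -0.07 and 0.21 had opposite signs, and the gene value was 0.07 ± 0.19 (SD between the 2 probes). RARG read 1194 ± 119 and 1220 ± 122, a difference of 0.22 (1.16-fold). Neither receptor stood apart from the bulk of genes, with 48.3% of genes lower than RARA and 67.1% lower than RARG. RARB, a receptor whose own promoter carries a response element, had 1 probe well above background on neither array (3.70 ± 3.72 and 4.98 ± 4.09). Its other probe read 25.9 ± 4.40 in substate 1 and 13.9 ± 4.11 in substate 2, where it was not well above background, and so was at least 1.51-fold lower. That bound shrank to -0.01 on the log2 scale under normexp correction.

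GREB1 did not share the rise of its paralogue in these readings, although the difference between the genes could not be tested. Its first probe read 363 ± 36.4 in substate 1 and 315 ± 31.7 in substate 2, a difference of -0.02. Its other probe, for another transcript record, read 64.0 ± 7.25 and 43.8 ± 5.72, a difference of -0.36. The gene value was -0.19, or -0.02 under normexp, and 22.4% of genes were lower.

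**Figure D2:**
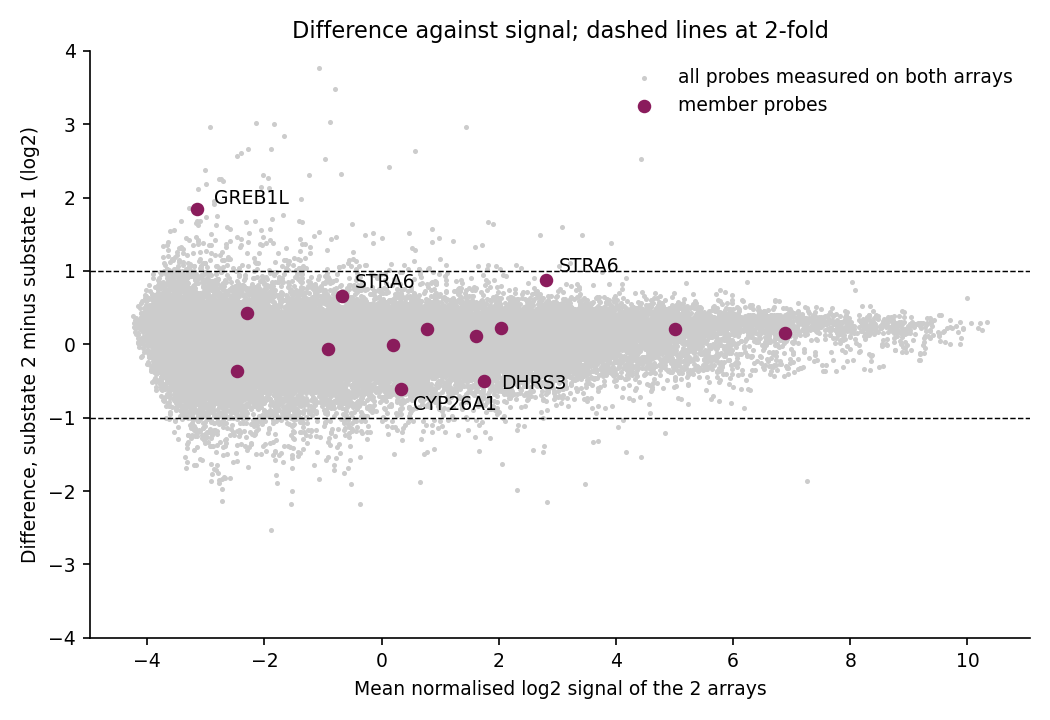
Difference between substates (log2, substate 2 minus substate 1, vertical axis) against mean normalised log2 signal (horizontal axis) for the probes well above background on both arrays (grey) and for the member probes among them (coloured); dashed lines mark 2-fold, and 1 probe lies outside the axis. GREB1L, at 1.85, is the member past the 2-fold line, at the dim end where the grey cloud is widest.

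The genes whose probe lay nearest to the GREB1L probe in mean signal and difference together were CDH10, GABRB2, TFPI, OXGR1 and FNDC5, at distances from 0.19 to 0.35. CDH10, a cadherin of the nervous system, went from -3.87 to -2.13 (difference 1.74). GABRB2, a subunit of the GABA-A receptor, differed by 1.66. TFPI, an inhibitor of coagulation, differed by 2.12, OXGR1, a receptor for oxoglutarate, by 1.96, and FNDC5, the precursor of irisin, by 1.75. These likenesses rest on 2 arrays. The genes next to GREB1L on chromosome 18, a look added after the values were seen, did not share its difference: ROCK1 on one side stood at 0.04 and ESCO1 on the other at -0.30, with SNRPD1 at 0.44, ABHD3 at -0.63 and MIB1 at 0.23 further along. The 223 genes of chromosome 18 had a median of 0.06, against 0.08 over all genes.

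The wider retinoid pathway was read from 4 lists of 109 genes in all besides the members, of which 107 had a probe and 103 of 151 probes were measured. Of these 103 probes 8 were past the 2-fold limit upwards (7.77%) and 1 downwards (0.971%), where 1.55% and 1.67% of all probes were. Of the 93 measured on both arrays 4 were higher, where 0.85% of all such probes were. The lists were chosen with earlier results of these data known, so no excess is read from these shares. The 70 genes measured on both arrays had a median of 0.15, against 0.08 over all genes. The 8 higher probes belonged to 6 genes, and 3 of them to the same gene.

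Among 31 genes of retinoid uptake, storage and metabolism, RDH8 changed, a photoreceptor retinol dehydrogenase that was 2.51-fold higher in substate 2 (15.4 ± 4.23 and 33.9 ± 5.08). Its probe was not well above background in substate 1, and the ratio rests on its own dim value there. The 20 genes measured on both arrays had a median of 0.09, and the lowest was BCO2, a carotenoid oxygenase, at -0.77. The synthetic enzymes RDH10, ALDH1A3 and ALDH1A1 were not called. RDH10 stood at 0.02, ALDH1A3 at 0.42, and the probes of ALDH1A1 at 0.26 and 0.48. ALDH1A2 was well above background on neither array. LRAT, which esterifies retinol for storage, stood at -0.24.

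Among 25 receptor partners and cofactors, NR2F1 and NR2F2 (the COUP-TF receptors, which bind overlapping repeats and are induced by retinoic acid in other cells) changed. NR2F1 read 11.2 ± 3.66 in substate 1 and 100.4 ± 10.7 in substate 2, at least 7.91-fold higher. NR2F2 read 3.62 ± 3.63 and 31.9 ± 5.10, at least 2.51-fold higher. Both were well above background in substate 2 only. The retinoid X receptors, with which the retinoic acid receptors pair, were not called: RXRA stood at 0.26, RXRB at 0.05 and RXRG at 0.46. The corepressor NCOR1 stood between -0.02 and 0.02 over 3 probes. ZNF423, a zinc finger cofactor of the receptors, stood at 0.86, the highest of the 22 genes measured on both arrays, whose median was 0.15.

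Of 42 genes known to respond to retinoic acid, members included, 24 were measured on both arrays, with a median of 0.18 (0.23 without the members) and a range from -1.47 to 2.97. GBX2, a homeobox gene of the anterior hindbrain, went from 304 ± 30.5 in substate 1 to 2086 ± 209 in substate 2, a difference of 2.97. TSHZ1, a zinc finger gene, went from 31.2 ± 4.31 to 70.3 ± 7.71, a difference of 1.36. GDF15, a stress-induced cytokine, went the other way, from 3521 ± 352 to 1117 ± 112, a difference of -1.47. Of the 24 genes, 14 had a difference above 0 and 10 below it. Uncalled rises included RAI1 at 0.89 by its probe measured on both arrays, RAI2 at 0.71 and TBX1 at 0.68. The responders CYP26A1, DHRS3 and, by its 1 measured probe, RARB had values below 0. ICAM1, an adhesion molecule printed 10 times, stood at -0.25 ± 0.07 in substate 1 and -0.97 ± 0.09 in substate 2 (SD between spots, n = 10 spots on 1 array). Of the HOX genes of the list, HOXA5 was measured in substate 2 alone and was at least 1.52-fold higher. No probe was measured on either array for 16 genes of the list.

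The hormone receptor genes that give GREB1 its context were read by 13 genes and 14 measured probes. The 3 probes that were called all belonged to GPER1, a membrane receptor for oestrogen, at differences of 1.57 and 1.45 and a bound of at least 2.33-fold, while its other measured probe stood at 0.45. ESR1, the oestrogen receptor, stood at 0.37 with signals of 34.9 ± 4.58 and 39.6 ± 5.03. Under normexp correction RDH8, NR2F2, TSHZ1 and GPER1 fell below the 2-fold limit, at differences or bounds from 0.22 to 0.65, and the bound of NR2F1 was 1.16 in place of 2.98, so that its size depends on the background correction. GBX2 stood at 2.75.

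**Figure D3:**
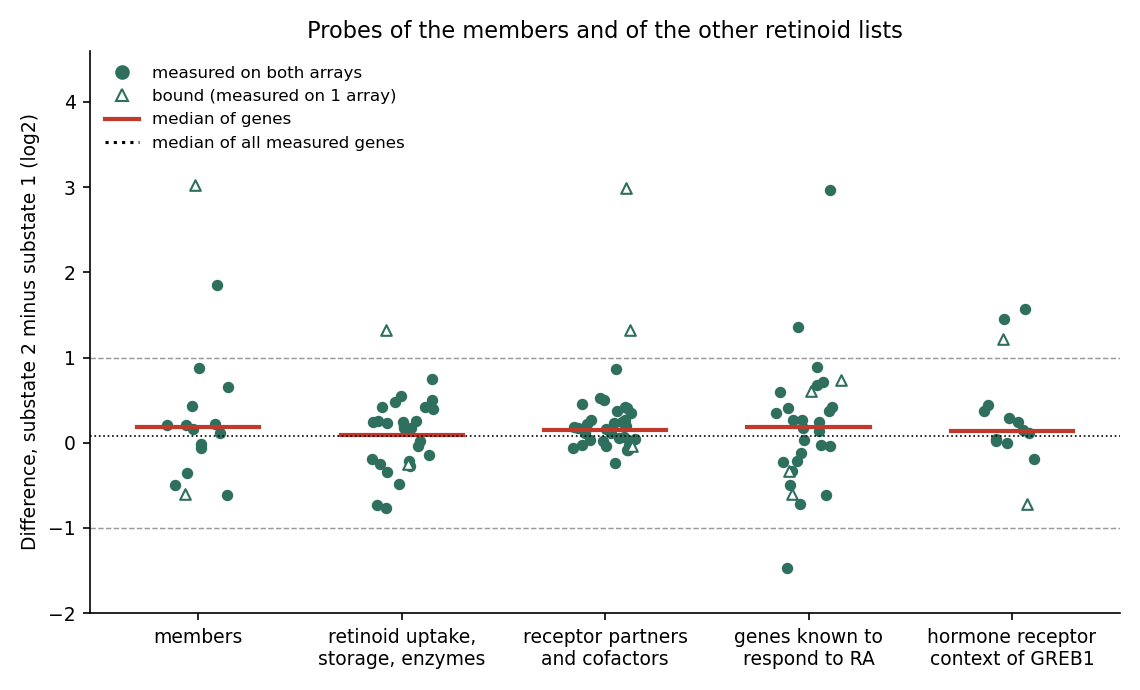
Differences (log2, substate 2 minus substate 1, vertical axis) of the probes of the members and the 4 pathway lists; filled points are probes measured on both arrays, open triangles are bounds for probes measured on 1 array, red lines are medians over genes and the dotted line is the median of all genes. The medians lie between 0.09 and 0.18, close to the 0.08 of all genes, and single probes such as those of GREB1L at 1.85, GBX2 at 2.97 and GDF15 at -1.47 lie far outside.

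The labels were checked against the markers of the study. VIM (vimentin) was 5.76-fold higher in substate 2, the probes of ZEB1 differed by 2.41 and 2.67, and CDH1 (E-cadherin) was 2.78-fold lower. Of 12 stem cell markers 10 had a named probe, all measured on both arrays, with gene differences from -0.35 for PODXL to 0.42 for NANOG. Of 12 probes for 8 neural ectoderm markers 8 were measured, and those of LHX2 (difference 2.32) and 1 of the 2 of DLK1 (1.69) were called higher. The other DLK1 probe stood at 0.15, OTX2 at -0.04 and the NES probes at 0.33 and 0.43. SOX1 and HES5 were measured in substate 2 only, with bounds of at least 1.71-fold and 1.90-fold, and PAX6 and SIX3 lay near background on both arrays. Of the other lists, the mesoderm marker MESP1 (2.21-fold) and the trophoblast marker CGA (at least 2.12-fold) were called higher and the trophoblast marker TFAP2C lower (3.62-fold). The ratio of MESP1 rests on its own dim value in substate 1. No endoderm or fibroblast marker was called. The endoderm markers measured on both arrays were FOXA2, at 0.77, and CXCR4, at -0.15.

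Signals of the measured probes of each list were also summed, in units of the 75th percentile of the same array. A sum is ruled by its brightest probes. It was 24.3 in substate 1 and 32.1 in substate 2 for the 8 neural probes. Most of that came from the NES probes, at normalised log2 values of 4.25 and 1.96 in substate 1 and 4.57 and 2.39 in substate 2, and neither was called. The sum was 0.719 and 0.744 for 3 endoderm probes, with SOX17, GATA6 and CER1 near background on both arrays. The 1 mesoderm probe, of MESP1, gave 0.0548 and 0.121, with TBXT, MIXL1, EOMES and HAND1 near background. The sum was 10.2 and 11.3 for 4 trophoblast probes, with GATA3 near background, and 5.20 and 4.74 for 3 fibroblast probes, with COL3A1, DCN and LUM near background. Most of the trophoblast sum came from KRT7 (log2 3.28 and 3.44), which was not called. The part of LHX2, DLK1, MESP1, CGA and TFAP2C, or of the cells they mark, in the differences of GREB1L and NR2F1 was not tested.

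**Figure D4:**
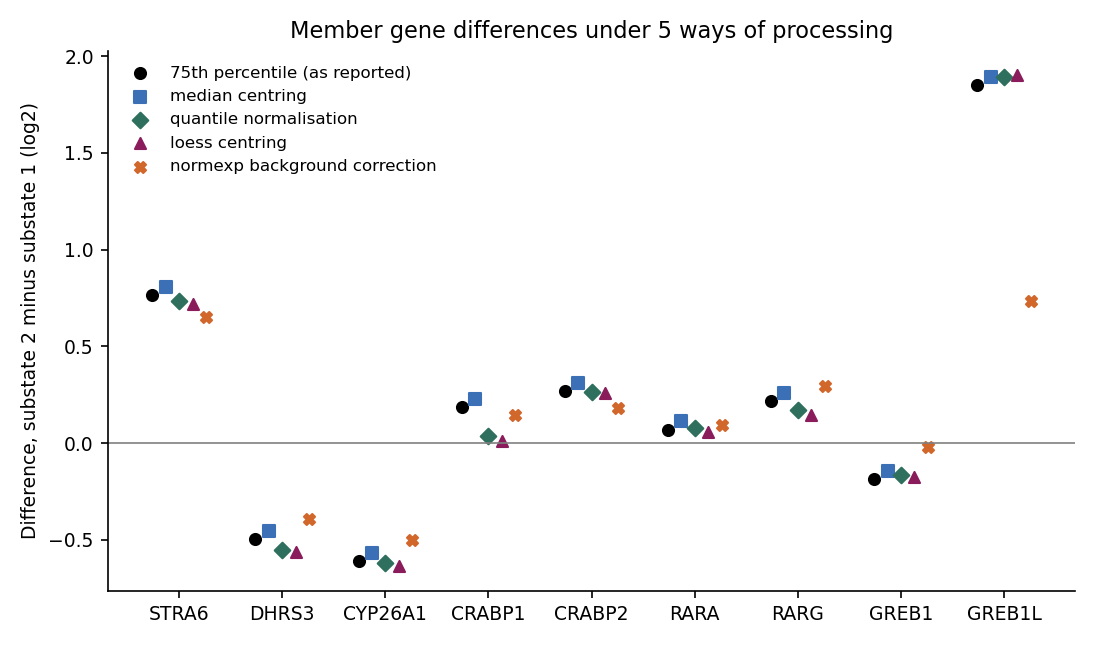
Gene difference (log2, substate 2 minus substate 1, vertical axis) of the 9 member genes measured on both arrays under 5 ways of processing, 1 symbol each. GREB1L lies between 1.85 and 1.90 except under normexp background correction, where it is 0.73, and STRA6, CYP26A1 and DHRS3 keep their sign throughout.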

How the data were processed

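RNA of H9 substate 1 and substate 2 cells was measured on 1 Agilent SurePrint G3 array each. The authors deposited the scanner output, with a background-subtracted intensity per spot from Agilent Feature Extraction 11.5.1.1 per the file headers, and a matrix of log2 values shifted by each array's 75th percentile. Of 62976 spots 60901 were not controls. Intensities under 1 were set to 1 (0 spots), log2 was taken, outlier spots (71 and 101) were left out, repeated spots were averaged to 58201 probes, and the 75th percentile of the array was subtracted. The deposited matrix differed from these values by 1 constant per array. Its medians were -3.56 and -3.61. Gene values were means over probes well above background and unsaturated on both arrays. Probes were named by unversioned RefSeq accession in a table for GRCh38.p14 (31104 matched, 53.4%), used for names and neighbours and not for probe positions. No test was possible with 1 array per group, and precision is limited by the number of arrays.

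The genes named were all members, list genes with a probe past 2-fold or with a stated role, the 5 genes nearest to GREB1L, and markers. The members and lists were chosen with earlier results of these data known. Alternatives were normexp (offset 50), loess centring (span 0.3), quantile normalisation, median centring, outlier spots kept, the deposited matrix, other filters on dim probes and other SDs of the Z-score. Normexp was planned on mean spot intensities and was run on the median spot and background intensities that the deposited files hold. Spot noise by signal, the neighbours of GREB1L and the shorter motif were added after the data had been seen. The scripts were tested on simulated data. Python 3.11.15, pandas 2.3.3, R 4.3.3 and limma 3.58.1 were used.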

Additional observations from a re-analysis of the deposited data

How the results depend on the processing

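No paired analysis was possible because there was 1 array for each substate. Under normexp correction 1 member probe was higher by 2-fold, as it was among probes well above background on both arrays only, against 2 in the main setting. The other pathway probes that were higher, 8 in the main setting, came to 2 under normexp, 4 when both arrays had to be well above background and 16 without a filter on dim probes, and the lower ones rose from 1 to 5 without a filter. Member probes below the lower Z-score limit, 0 in the main setting, came to 2 under normexp and 2 with an SD from the median absolute deviation. The GREB1L difference of 1.85 was 0.73 under normexp and 3.02 by its other probe, and the RARB bound of -0.60 was -0.0112 under normexp. The cause was not tested. The other 69 values for the principal results moved by at most 1.5 times for a count. Differences and medians among them moved by less than 0.235 (log2), or 0.563 for GREB1L and RARB. Each of these log2 limits joins the median SDs between spots of the 2 arrays into the SD of a difference. The 0.235 is for normalised values from -4 to -2 and the 0.563 for those from -5.5 to -4. Brighter probes had 0.128 (from -2 to 0) and 0.0674 (above 0), so 0.235 is a loose limit for bright genes. Among the 69 values the member median ran from 0.06 to 0.23, and member probes past the upper Z-score limit came to 3 under normexp. Of the values for single genes and lists 118 lay within those limits and 8 did not. Some of these settings could hardly move a value. Keeping outlier spots does not bear on members printed as 1 spot. Median centring and the deposited matrix shift all differences by 1 constant. The median of the retinoid uptake and enzyme list, 0.09, was -0.000898 under normexp, on the other side of 0. Over all probes the main setting called 514 higher and 553 lower (48.2% higher) and normexp 89 and 63 (58.6%). The median of all genes ran from 0.03 under loess to 0.13 under centring on the median. Signals near background limit GREB1L, RARB and NR2F2.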
